A study of Homo sapiens with 12 samples.

Results

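The mRNA of 10 genes of the YAP and TEAD pathway was followed in HCT15 and HCT116, established human colorectal carcinoma cell lines. The genes are YAP1, WWTR1, TEAD1, TEAD4, CCN1, CCN2, AJUBA, AMOTL2, LATS2 and NT5E. They were picked by name and matched through their Ensembl identifiers, which gave 10 rows of the 63036 identifiers in the expression table. All 10 were among the 15584 genes tested, which are those with at least 1 TPM (transcripts per 1000000) in at least 3 libraries. The groups were HCT15 cells overexpressing RNF26, HCT15 control cells, HCT116 cells overexpressing RNF26 and HCT116 control cells, with 3 polyA RNA libraries in each of the 4 groups. RNF26 is a membrane-bound E3 ubiquitin ligase of the endoplasmic reticulum, and the series title links it to proliferation and metastasis through the Wnt pathway. The vector, the promoter, whether cells were 1 clone or a pool, and the age of the cultures are not stated in the labels. Nothing says that the libraries of a group came from separate cultures, so the p-values measure the spread between libraries, which may be technical.

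YAP1 encodes YAP and WWTR1 encodes TAZ, coactivators that bind no DNA by themselves. In the Hippo pathway the kinases STK3 and STK4 activate LATS1 and LATS2, which phosphorylate YAP and TAZ and hold them in the cytoplasm. Unphosphorylated YAP and TAZ enter the nucleus, bind the TEAD transcription factors and switch on growth and matrix genes such as CCN1 and CCN2, and also LATS2 and AMOTL2, which restrain YAP in turn. In the gut the pathway is known for its part in epithelial regeneration. Protein, phosphorylation and cell location were not measured here, and an mRNA level does not report YAP activity. Because whole cultures were sequenced, fewer cells with a transcript and less of it per cell cannot be told apart.

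Promoter windows of RefSeq (GRCh38.p14, 250 bases before to 50 after an annotated start) were found for 7 of the 10 genes, with 10 windows in all. TEAD1, TEAD4 and CCN1 had no entry in the table used. The 6-letter core GGAATG, or CATTCC on the other strand, is the sequence that TEAD proteins are known to recognise. It was present in 1 window each of 5 of the 7 genes, and so in 5 of the 10 windows. The windows below are shown because they give the promoters of the genes described most below, with and without the motif. They were chosen with the expression values known, and no relation between copies and change was tested. Each reads 5′ to 3′ on the strand of its gene, with the motif in capitals.
CCN2: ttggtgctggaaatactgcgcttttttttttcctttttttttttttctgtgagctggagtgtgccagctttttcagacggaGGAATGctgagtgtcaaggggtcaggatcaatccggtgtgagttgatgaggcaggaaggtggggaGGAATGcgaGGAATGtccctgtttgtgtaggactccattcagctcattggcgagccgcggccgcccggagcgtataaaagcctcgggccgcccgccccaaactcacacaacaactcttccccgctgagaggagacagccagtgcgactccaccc
YAP1: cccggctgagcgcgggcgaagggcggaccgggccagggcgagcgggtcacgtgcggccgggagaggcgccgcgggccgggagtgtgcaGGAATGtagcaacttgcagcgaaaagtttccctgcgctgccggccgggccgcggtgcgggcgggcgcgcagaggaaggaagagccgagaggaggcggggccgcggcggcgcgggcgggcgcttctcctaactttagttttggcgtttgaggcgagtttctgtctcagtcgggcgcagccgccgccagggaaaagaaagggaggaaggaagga
AMOTL2: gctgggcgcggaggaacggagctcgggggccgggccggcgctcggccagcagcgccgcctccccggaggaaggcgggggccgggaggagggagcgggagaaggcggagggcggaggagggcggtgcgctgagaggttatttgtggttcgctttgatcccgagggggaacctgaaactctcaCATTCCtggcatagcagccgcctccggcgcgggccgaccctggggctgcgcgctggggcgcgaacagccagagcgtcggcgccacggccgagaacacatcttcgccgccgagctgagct
LATS2: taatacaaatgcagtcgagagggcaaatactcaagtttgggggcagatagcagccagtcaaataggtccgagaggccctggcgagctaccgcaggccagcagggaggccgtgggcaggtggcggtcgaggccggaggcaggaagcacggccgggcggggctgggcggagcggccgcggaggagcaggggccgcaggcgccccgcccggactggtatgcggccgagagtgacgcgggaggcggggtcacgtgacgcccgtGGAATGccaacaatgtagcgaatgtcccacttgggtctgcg
NT5E: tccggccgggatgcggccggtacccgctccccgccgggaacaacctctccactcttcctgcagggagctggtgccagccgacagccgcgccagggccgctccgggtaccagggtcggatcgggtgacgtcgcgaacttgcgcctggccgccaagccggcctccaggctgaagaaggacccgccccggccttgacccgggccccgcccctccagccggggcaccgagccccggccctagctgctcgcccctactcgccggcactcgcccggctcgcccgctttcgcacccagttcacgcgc
The CCN2 window lies at chr6:131951323-131951622 on the minus strand, and its copies begin at positions -169, -104 and -95, where -1 is the last base before the start and 1 the start itself. The YAP1 window lies at chr11:102110197-102110496 on the plus strand, with its copy from position -162 to -157. The AMOTL2 window shown lies at chr3:134374398-134374697 on the minus strand and carries the motif on the other strand, from position -69 to -64. The other AMOTL2 window, at chr3:134375368-134375667, held none. The LATS2 window lies at chr13:21061537-21061836 on the minus strand, and its copy spans positions 10 to 15. The NT5E window lies at chr6:85449833-85450132 on the plus strand. AJUBA had 1 copy in 1 of its windows, at position -59, and neither WWTR1 window held any. Among 35116 RefSeq windows of the same length, 14.0% held at least 1 copy, 1.37% at least 2 and 0.128%, or 45 windows, at least 3. The AP-1 motif TGANTCA, searched on both strands because AP-1 is known to act with TEAD at enhancers, was in none of the 10 windows and in 7.71% of all. These are matches of letters and no binding was measured.

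**Figure D1:**
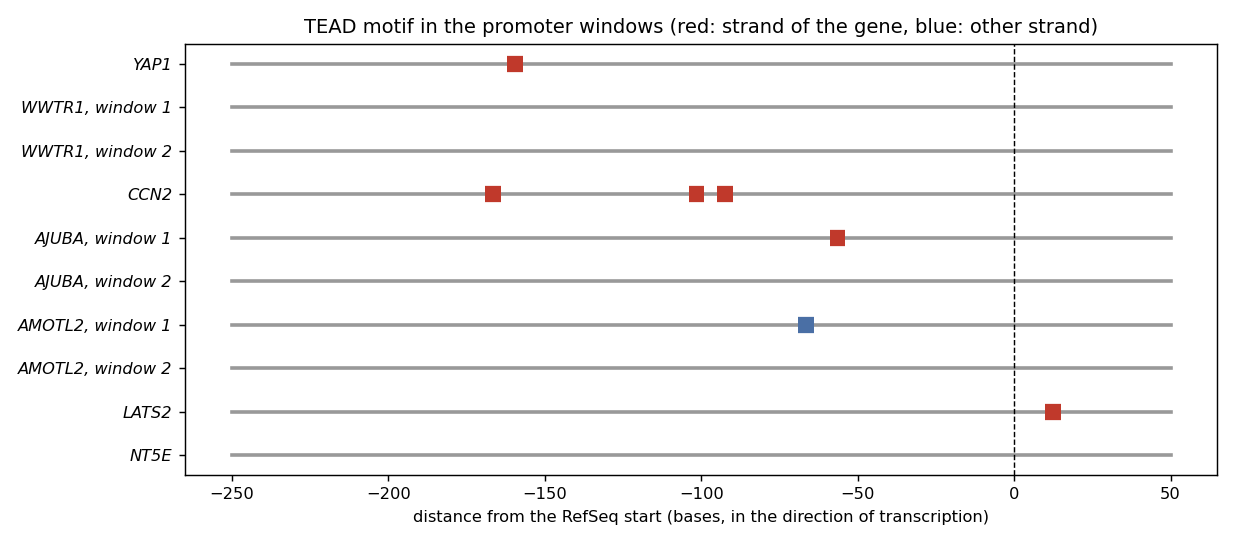
Copies of the TEAD motif in the 10 promoter windows of 7 genes. The horizontal axis gives the distance from the RefSeq start in bases, red squares are copies on the strand of the gene and the blue square is a copy on the other strand. CCN2 carries 3 copies, YAP1, AJUBA, AMOTL2 and LATS2 carry 1 in a window, and WWTR1 and NT5E carry none.

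RNF26 was higher in every library labelled as overexpressing it. It measured 53.54, 54.59 and 54.41 TPM in HCT15 RNF26 libraries, against 26.71, 27.84 and 26.39 TPM in HCT15 control libraries, a 2.01-fold difference. It measured 298.54, 333.82 and 255.16 TPM in HCT116 RNF26 libraries, against 15.57, 18.40 and 16.53 TPM in HCT116 control libraries, a 17.6-fold difference. Between 13582 and 14135 genes reached 1 TPM per library. The depth per library is unknown, since TPM divides it out. The summed level of 11 colorectal epithelial markers was 4358 to 4545 TPM in HCT15 RNF26, 4822 to 5599 TPM in HCT15 control, 2726 to 3142 TPM in HCT116 RNF26 and 2932 to 3219 TPM in HCT116 control libraries. Of the 11 markers 6 reached 1 TPM in every HCT116 RNF26 library, and 7 did so in each other group. Most of the sum came from KRT8, KRT18, KRT19 and EPCAM, named after their values were seen. CDX1 and CEACAM5, named likewise, reached at most 0.07 and 0.02 TPM in any library. The 8 fibroblast markers summed to at most 2.94 TPM and the 4 endothelial markers to at most 0.32 TPM in any library. The 5 leukocyte markers summed to at most 21.9 TPM. Ribosomal protein mRNA took 26.3% to 27.5% of TPM in HCT15 RNF26 libraries, against 21.8%, 24.3% and 17.5% in HCT15 control libraries. Mitochondrial RNA took 18.4% to 19.2% of TPM in HCT15 RNF26 libraries, against 17.7%, 16.4% and 25.9% in HCT15 control libraries. HCT15 control replicate 3 thus stood apart from the other controls in both shares.

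In HCT15 cells the mRNA of 8 of the 10 genes fell with RNF26 and that of NT5E rose. The falls ran from 1.35-fold for TEAD1 to 2.91-fold for CCN2, and NT5E was 1.77-fold higher in RNF26 cells. WWTR1 did not pass the test. A gene was called at a Benjamini-Hochberg adjusted p under 0.05 in limma on log2(TPM + 1), adjusted over all tested genes. On that scale the change of genes with low TPM is understated. By the same rule 31.2% of all tested genes were called lower and 5.39% higher in HCT15 RNF26 cells, so a fall was common in this comparison and a rise was not. The median difference was -0.66 on the log2 scale over the 10 genes and -0.17 over all tested genes. The libraries of the RNF26 and control groups did not overlap for 9 of the 10 genes, against 43.1% of all tested genes. An exact permutation test of 3 against 3 libraries cannot go below p = 0.1, and it gave 0.1 for each of those 9.

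**Figure D2:**
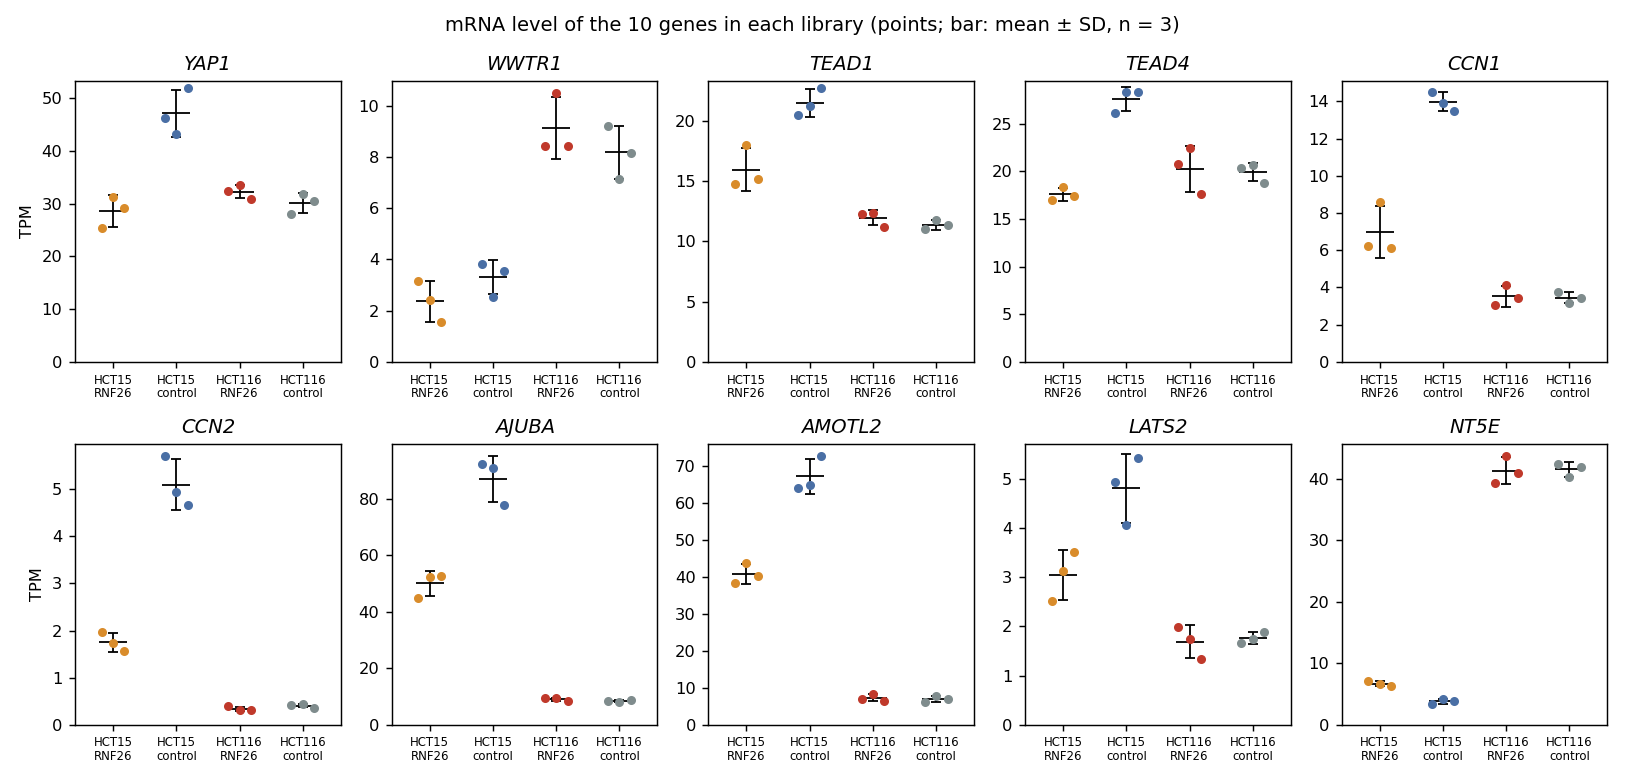
Level of each of the 10 genes in TPM in the 12 libraries, with points for libraries and a bar with whiskers for the mean ± SD of 3 libraries per group. In HCT15 the RNF26 points lie below the control points for all genes but WWTR1, where they overlap, and NT5E, where they lie above, and in HCT116 the RNF26 and control points overlap for every gene.

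The coactivators were measured first. YAP1 (chromosome 11, 102110461 to 102233423, plus strand) had 25.33, 31.24 and 29.24 TPM in HCT15 RNF26 libraries, against 46.29, 43.14 and 51.91 TPM in HCT15 control libraries. Every RNF26 library was below every control library. YAP1 averaged 28.6 ± 3.01 TPM in RNF26 cells and 47.1 ± 4.44 TPM in control cells (SD, n = 3 each), a log2 difference of -0.70 (SE 0.0913, limma adjusted p = 0.000231). WWTR1 (chromosome 3, 149517235 to 149736714, minus strand) had 3.15, 2.40 and 1.55 TPM in HCT15 RNF26 libraries, against 3.84, 2.55 and 3.55 TPM in HCT15 control libraries. The groups overlapped, and the log2 difference of -0.37 had a 95% interval of -0.77 to 0.03 (limma adjusted p = 0.1335). Without RNF26 replicate 1, the highest of its group, the difference was -0.54 and passed the test (adjusted p = 0.0467). YAP1 was the main coactivator transcript in HCT15, with a median YAP1 to WWTR1 ratio within a library of 13.02 in RNF26 cells and 14.6 in control cells.

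The TEAD factors carry the DNA-binding domain of the complex. TEAD4 (chromosome 12, 2959330 to 3040673, plus strand) had 16.94, 18.31 and 17.45 TPM in HCT15 RNF26 libraries, against 26.10, 28.29 and 28.34 TPM in HCT15 control libraries. Every RNF26 library was below every control library. TEAD4 averaged 17.6 ± 0.692 TPM in RNF26 cells and 27.6 ± 1.28 TPM in control cells, a log2 difference of -0.62 (SE 0.0863, limma adjusted p = 0.000334). TEAD1 (chromosome 11, 12674591 to 12944483, plus strand) had 14.73, 18 and 15.14 TPM in HCT15 RNF26 libraries, against 20.47, 21.21 and 22.72 TPM in HCT15 control libraries. This was the smallest called fall, with a log2 difference of -0.41 (SE 0.0842, limma adjusted p = 0.00320). TEAD1 lay at -0.20 with median-ratio scaling (adjusted p = 0.0456) and missed the threshold after quantile normalization, at -0.16 (adjusted p = 0.0869). The remaining family members TEAD2 and TEAD3 fell too. TEAD2 averaged 12.2 ± 0.948 TPM in RNF26 cells and 18.1 ± 0.621 TPM in control cells (adjusted p = 0.000407). TEAD3, named after its values were seen, averaged 5.57 ± 0.505 TPM in RNF26 cells and 8.15 ± 0.212 TPM in control cells (adjusted p = 0.00314).

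CCN1 and CCN2 are secreted matricellular proteins and widely used readouts of YAP and TAZ. CCN2 (chromosome 6, 131948176 to 131951373, minus strand, named CTGF in the annotation) had 1.96, 1.74 and 1.56 TPM in HCT15 RNF26 libraries, against 5.70, 4.94 and 4.67 TPM in HCT15 control libraries. The groups were well apart. CCN2 gave the largest log2 difference of the 10 genes, -1.15 (SE 0.105, limma adjusted p = 4.63e-05). Of all tested genes 0.841% had a lower value. CCN1 (chromosome 1, 85580761 to 85583962, plus strand, named CYR61 in the annotation) had 6.23, 8.58 and 6.11 TPM in HCT15 RNF26 libraries, against 14.51, 13.92 and 13.50 TPM in HCT15 control libraries. It averaged 6.97 ± 1.39 TPM in RNF26 cells and 14.0 ± 0.507 TPM in control cells, with a log2 difference of -0.92 (SE 0.128, limma adjusted p = 0.0003365). Both genes were called lower under each of the 5 scalings described below. CCN1 is also known as an immediate early gene, and 11 of 13 tested genes of an immediate early list were called lower in HCT15 RNF26 cells, against 31.2% of all tested genes. That list summed to 294.74 to 325.52 TPM in HCT15 RNF26 libraries, against 491.83 to 534.89 TPM in HCT15 control libraries. The part of these genes in the CCN1 and CCN2 result was not tested.

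AMOTL2, LATS2 and AJUBA act on the pathway from within. AMOTL2 (chromosome 3, 134355874 to 134375479, minus strand) encodes an angiomotin-like scaffold that binds YAP and is itself a YAP target. It had 38.26, 43.78 and 40.06 TPM in HCT15 RNF26 libraries, against 64.08, 64.69 and 72.62 TPM in HCT15 control libraries. The log2 difference was -0.71 (SE 0.108, limma adjusted p = 0.0005645). AJUBA (chromosome 14, 22971174 to 22982642, minus strand) encodes a LIM protein that binds and inhibits LATS kinases. It had 45.07, 52.48 and 52.73 TPM in HCT15 RNF26 libraries, against 92.53, 91.09 and 77.86 TPM in HCT15 control libraries. The log2 difference was -0.79 (SE 0.0874, limma adjusted p = 0.000105). AJUBA shares exon sequence on its strand with AL132780.3, so the split of reads between them is uncertain. AL132780.3 had 17.0, 10.47 and 13.33 TPM in HCT15 RNF26 libraries, against 12.89, 24.49 and 4.81 TPM in HCT15 control libraries, and its groups overlapped. LATS2 (chromosome 13, 20973032 to 21061547, minus strand), the kinase that phosphorylates YAP, had 2.51, 3.14 and 3.52 TPM in HCT15 RNF26 libraries, against 4.95, 4.06 and 5.44 TPM in HCT15 control libraries. The groups did not overlap, and the log2 difference was -0.52 (SE 0.135, limma adjusted p = 0.0113). The LATS2 call was lost with median-ratio scaling (adjusted p = 0.0620), with quantile normalization (0.0758) and with HCT15 fitted alone (0.0536). Correcting for GC content and length also ended it, with a difference of -0.06 (adjusted p = 0.730). The antisense partners of YAP1 and WWTR1 reached at most 0.39 TPM in any library. AL133346.1, an antisense gene that overlaps exons of CCN2, had no value, so its level is unknown.

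NT5E (chromosome 6, 85449584 to 85495791, plus strand) encodes CD73, the surface enzyme that turns extracellular AMP into adenosine, and is listed among YAP and TAZ target genes. It went the other way. NT5E had 7.08, 6.56 and 6.27 TPM in HCT15 RNF26 libraries, against 3.40, 4.09 and 3.79 TPM in HCT15 control libraries. It averaged 6.64 ± 0.410 TPM in RNF26 cells and 3.76 ± 0.346 TPM in control cells, a log2 difference of 0.68 (SE 0.0765, limma adjusted p = 0.000107). Of all tested genes 97.8% had a lower value. The rise was called under each of the 5 scalings, with log2 differences of 0.68 to 0.89.

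Without HCT15 control replicate 3 the same numbers were called, 8 lower and 1 higher. The log2 differences were then -0.63 for YAP1, -0.37 for TEAD1, -0.60 for TEAD4, -0.95 for CCN1 and -1.20 for CCN2. They were -0.86 for AJUBA, -0.65 for AMOTL2, -0.44 for LATS2 and 0.69 for NT5E. Leaving it out changed no call in the difference between lines or between the control lines. When the totals were taken without mitochondrial and ribosomal protein genes, 8 were again lower and 1 higher, with CCN2 at -1.19 and NT5E at 0.84. The whole-table fall shrank with the scaling: the called genes split into 840 higher and 4857 lower on TPM as deposited, 2242 higher and 2600 lower with median-ratio scaling, and 2275 higher and 2521 lower with quantile normalization. The split was 1413 higher and 3490 lower without mitochondrial and ribosomal protein genes and 1767 higher and 2406 lower after the GC and length correction. YAP1, TEAD4, CCN1, CCN2, AJUBA and AMOTL2 were called lower under each of these. With median-ratio scaling, which put the median of all genes at 0, they lay at -0.49, -0.41, -0.72, -0.98, -0.57 and -0.49. After the GC and length correction they lay at -0.64, -0.23, -0.59, -0.89, -0.61 and -0.32, so that TEAD4, CCN1 and AMOTL2 moved by more than 1.5 times from the values on TPM as deposited.

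**Figure D3:**
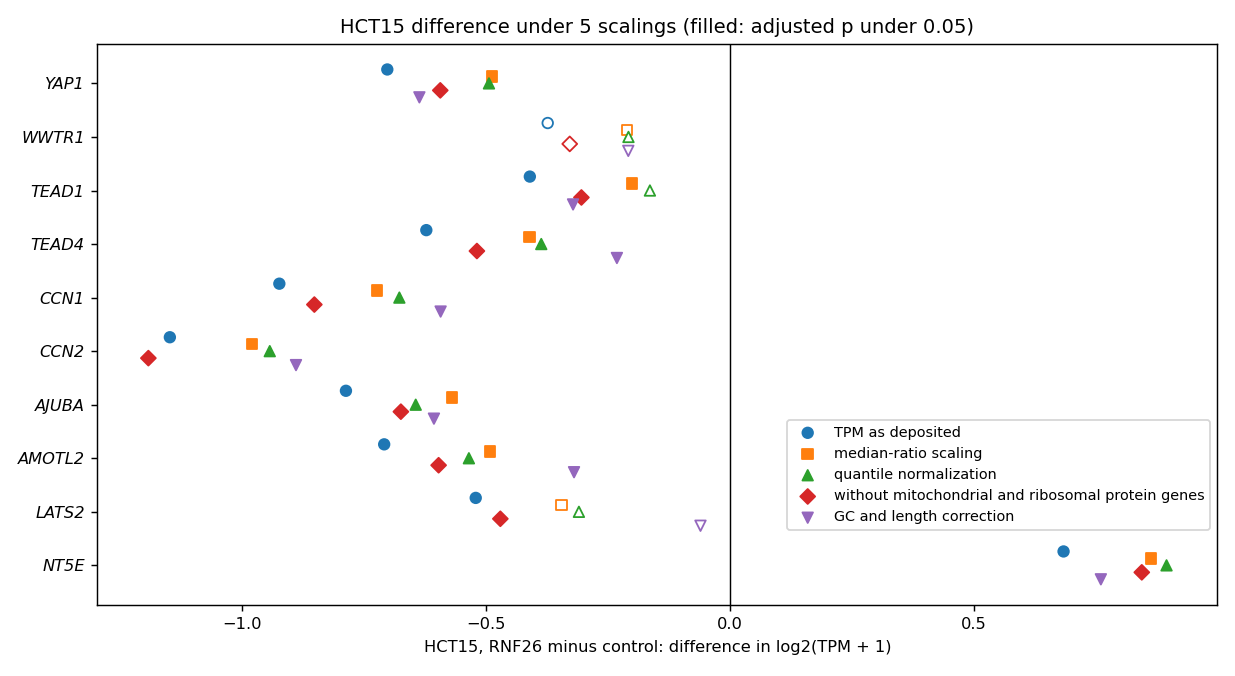
Difference between HCT15 RNF26 and HCT15 control cells in log2(TPM + 1) for each gene under 5 scalings, with filled symbols for an adjusted p under 0.05. Symbols stay on 1 side of 0 for each gene, CCN2 lies farthest to the left, NT5E lies to the right at 0.68 to 0.89, and LATS2 moves to -0.06 after the GC and length correction.

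In HCT116 cells none of the 10 genes was called, although RNF26 itself was 17.6-fold higher. The RNF26 and control libraries overlapped for all 10 genes, against 12.8% of all tested genes that did not overlap. Over the whole table limma called 1 gene, RNF26, which is 0.00642% of those tested, and 657 genes had an unadjusted p under 0.05. None of the 10 was among the genes with an unadjusted p under 0.05, each had an adjusted p of 1, and their log2 differences ran from -0.07 to 0.14. YAP1 had 32.34, 33.51 and 30.96 TPM in HCT116 RNF26 libraries, against 28.11, 31.86 and 30.49 TPM in HCT116 control libraries. The 95% interval of its log2 difference was -0.10 to 0.30. CCN1 had 3.03, 4.15 and 3.42 TPM in HCT116 RNF26 libraries, against 3.73, 3.18 and 3.45 TPM in HCT116 control libraries, with an interval of -0.26 to 0.30. NT5E, the highest of the 10 in this line, averaged 41.3 ± 2.21 TPM in HCT116 RNF26 cells and 41.5 ± 1.15 TPM in HCT116 control cells, with an interval of -0.18 to 0.16. CCN2 was low, with 0.39, 0.31 and 0.32 TPM in HCT116 RNF26 libraries, against 0.42, 0.43 and 0.36 TPM in HCT116 control libraries. It passed the filter on low values through its HCT15 libraries alone. WWTR1 had the widest interval, -0.26 to 0.54.

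**Figure D4:**
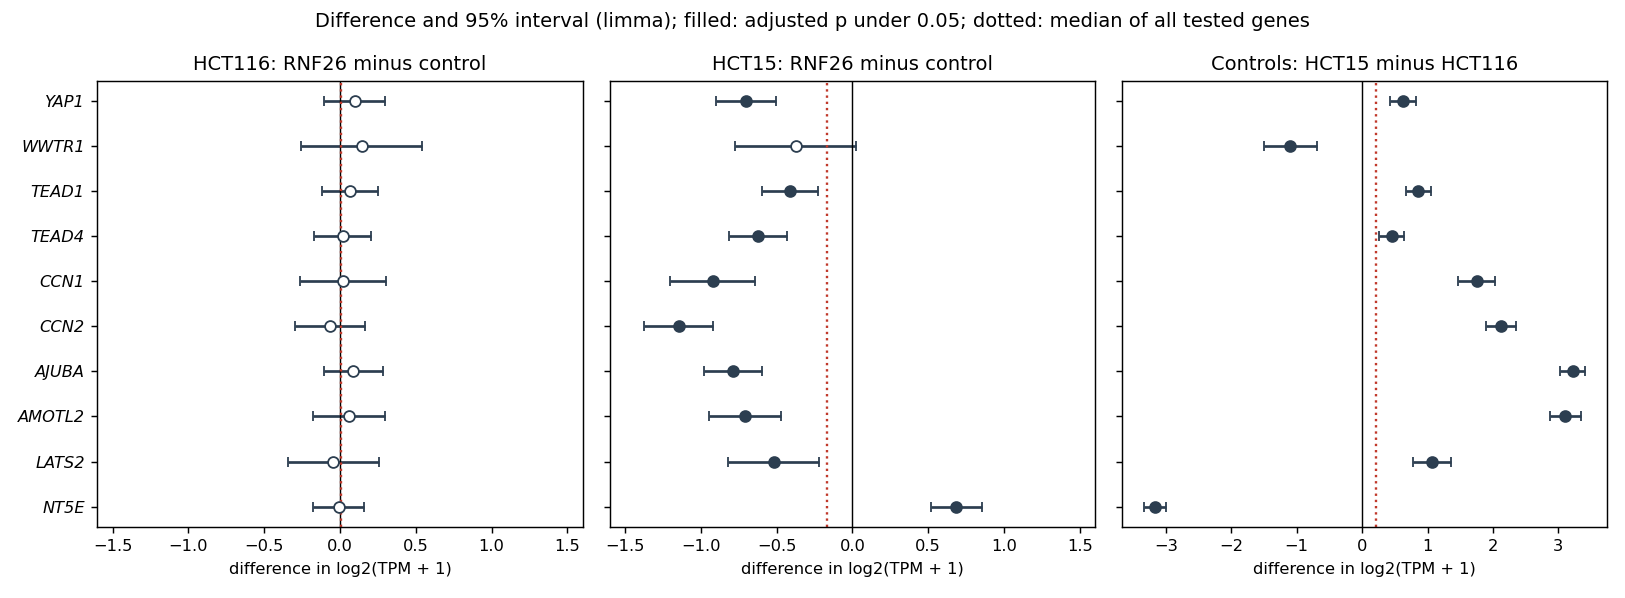
Difference in log2(TPM + 1) with its 95% interval from limma for RNF26 minus control in HCT116, RNF26 minus control in HCT15, and HCT15 minus HCT116 control cells, with filled points for an adjusted p under 0.05 and a dotted line at the median of all tested genes. All HCT116 points are open and lie between -0.07 and 0.14, in HCT15 8 genes are filled below 0 and NT5E above, and all points for the control lines are filled.

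The RNF26 effect was tested for a difference between the lines with an interaction term, HCT15 minus HCT116. Leaving CCN2 aside, it was lower in HCT15 for 6 of 9 genes and higher for NT5E, where 18.7% of all tested genes were called lower and 1.8% higher. The difference of effects was -0.94 for CCN1 (adjusted p = 0.00611), -0.87 for AJUBA (0.00188) and -0.80 for YAP1 (0.00304). For AMOTL2 it was -0.77 (adjusted p = 0.00686), for TEAD4 -0.64 (0.00600) and for TEAD1 -0.48 (0.0181). For NT5E it was 0.69 (adjusted p = 0.00266). LATS2, at -0.48 (adjusted p = 0.103), and WWTR1, at -0.51 (0.185), did not pass, so a difference between lines was not shown for them. The value for CCN2, -1.08, is given as a description only. From its HCT116 control level of 0.403 TPM, CCN2 could show a log2 difference no lower than -0.49 in that line, so the fall in HCT15 fixed the sign. TEAD1 lost its call with median-ratio scaling (adjusted p = 0.0996), with quantile normalization (0.150) and without mitochondrial and ribosomal protein genes (0.0566). TEAD4 (adjusted p = 0.0903) and AMOTL2 (0.0779) lost theirs after the GC and length correction. The lines also differ in how much RNF26 was raised, so line and dose cannot be told apart. Each comparison within a line has its own control libraries.

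AJUBA, AMOTL2 and NT5E differed widely between the control cells of the lines. YAP1 and TEAD4 lay nearer the median of all tested genes, with log2 differences of 0.62 and 0.45 against a median of 0.22. Leaving aside CCN2, which passed the filter on low values only through HCT15, all 9 other genes differed at an adjusted p of at most 0.000641. Of these 7 were higher and 2 lower in HCT15, where 43.6% of all tested genes were called higher and 26% lower. The 2 lower genes were NT5E and WWTR1. AJUBA averaged 87.2 ± 8.09 TPM in HCT15 control cells and 8.44 ± 0.366 TPM in HCT116 control cells, a 10.3-fold difference (limma adjusted p = 6.56e-11). AMOTL2 averaged 67.1 ± 4.76 TPM in HCT15 control cells and 6.95 ± 0.893 TPM in HCT116 control cells, a 9.66-fold difference. NT5E was 11.0-fold lower in HCT15 control cells, at 3.76 ± 0.346 TPM, against 41.5 ± 1.15 TPM in HCT116 control cells (adjusted p = 2.53e-11). On the log2 scale these differences between the lines were 3.22 for AJUBA, 3.10 for AMOTL2 and -3.16 for NT5E, each larger in size than the difference with RNF26 in HCT15. CCN2 averaged 5.10 ± 0.534 TPM in HCT15 control cells and 0.403 ± 0.0379 TPM in HCT116 control cells, as a description. CCN1 averaged 14.0 ± 0.507 TPM in HCT15 control cells and 3.45 ± 0.275 TPM in HCT116 control cells. LATS2 averaged 4.82 ± 0.700 TPM in HCT15 control cells and 1.76 ± 0.117 TPM in HCT116 control cells. The coactivators differed in opposite directions. YAP1 averaged 47.1 ± 4.44 TPM in HCT15 control cells and 30.2 ± 1.90 TPM in HCT116 control cells, while WWTR1 averaged 3.31 ± 0.677 TPM in HCT15 control cells and 8.18 ± 1.04 TPM in HCT116 control cells. The median YAP1 to WWTR1 ratio within a library was thus 14.6 in HCT15 control cells and 3.73 in HCT116 control cells. TEAD1 was 1.89-fold and TEAD4 1.38-fold higher in HCT15 control cells.

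TPM is scaled by transcript length, so the levels can be ordered within a group. In HCT15 RNF26 cells the order was AJUBA, AMOTL2, YAP1, TEAD4, TEAD1, CCN1, NT5E, LATS2, WWTR1 and CCN2. The libraries of TEAD4 and TEAD1 overlapped there, as did those of CCN1 and NT5E, LATS2 and WWTR1, and WWTR1 and CCN2. In HCT15 control cells the order was AJUBA, AMOTL2, YAP1, TEAD4, TEAD1, CCN1, CCN2, LATS2, NT5E and WWTR1, and the last 4 overlapped each with the next. In HCT116 RNF26 cells the order was NT5E, YAP1, TEAD4, TEAD1, WWTR1, AJUBA, AMOTL2, CCN1, LATS2 and CCN2, where WWTR1 and AJUBA overlapped. HCT116 control cells had the same order but for AJUBA ahead of WWTR1, with AJUBA, WWTR1 and AMOTL2 overlapping each with the next. CCN1 exceeded CCN2 in all 12 libraries, by a median of 3.92-fold in HCT15 RNF26, 2.82-fold in HCT15 control, 10.7-fold in HCT116 RNF26 and 8.88-fold in HCT116 control cells.

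Wider lists of the pathway hold some of the 10 genes themselves. Of 22 listed YAP and TAZ targets 18 were tested in HCT15, where 11 were called lower and 2 higher in RNF26 cells and 5 were not called. Over all tested genes 31.2% were called lower and 5.39% higher. The list holds 5 of the 10 genes, of which 4 were lower and NT5E higher. Of the 13 other targets 7 were lower, 1 was higher and 5 were not called. Among those not called, AXL, named after its values were seen, had at most 0.34 TPM in HCT15 libraries. It passed the filter on low values through HCT116 alone and had little room to fall in HCT15. The median difference was -0.51 over the list and -0.47 over the 13 others, against -0.17 over all tested genes. The 2 higher were NT5E and ANKRD1, a nuclear ankyrin-repeat cofactor named here after its values were seen. ANKRD1 had 8.34, 10.36 and 9.05 TPM in HCT15 RNF26 libraries, against 5.83, 5.21 and 7.04 TPM in HCT15 control libraries (log2 difference 0.55, limma adjusted p = 0.00380). Its groups did not overlap. NUAK2, a stress kinase of the AMPK family, averaged 5.15 ± 0.533 TPM in RNF26 cells and 9.16 ± 0.835 TPM in control cells (adjusted p = 0.000388). Of 14 tested YAP and TEAD binding partners 9 were lower, none was higher and the median was -0.51. Of the 8 partners that are not among the 10 genes, 4 were lower, with a median of -0.45. Among the partners not called, AMOTL1 had at most 0.14 TPM in HCT15 libraries and passed the filter through HCT116 alone, with almost no room to fall. AJUBA, YAP1, TEAD4 and TEAD2 had the smallest p of the list of partners. In the 3 tested genes of the CCN family CCN1 and CCN2 were lower, and CCN3, named after its values were seen, was not called. CCN3 had 0.55, 0.24 and 0.19 TPM in HCT15 RNF26 libraries, against 0.77, 0.17 and 0.42 TPM in HCT15 control libraries. It passed the filter on low values through HCT116 alone, so in HCT15 it had little room to fall and its missing call shows little. After the GC and length correction 10 targets were lower and 4 higher, where 2406 of all 14849 genes tested were called lower and 1767 higher.

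The kinases as a list lay near the background. Of 16 tested genes of the Hippo kinase module 7 were lower and 9 were not called in HCT15 RNF26 cells, with a median of -0.22. Over all tested genes 31.2% were called lower, with a median of -0.17, so the list shows little beyond the whole table. Quantile normalization turned this into 3 lower and 3 higher, where 2521 of all 15584 tested genes were called lower and 2275 higher. With median-ratio scaling or without mitochondrial and ribosomal protein genes 2 were called higher. Over all tested genes 2242 of 15584 and 1413 of 15487 were then called higher. MINK1 and MAP4K4, kinases of the MAP4K family that activate LATS kinases, had the smallest p beside MAP4K2 and LATS1. MINK1 averaged 13.1 ± 1.21 TPM in RNF26 cells and 23.1 ± 2.47 TPM in control cells, with a log2 difference of -0.77 (limma adjusted p = 0.000254). MAP4K4 had a log2 difference of -0.78 (adjusted p = 0.000385), MAP4K2 of -0.81 (0.000437) and LATS1 of -0.52 (0.00404). Of 14 tested upstream regulators 7 were lower, or 50% against 31.2% of all tested genes, and 7 were not called, with a median of -0.36. Among those not called, RASSF2, named after its values were seen, had at most 0.02 TPM in HCT15 libraries. It passed the filter on low values through HCT116 alone and had almost no room to fall in HCT15. STRN4 is a striatin, a subunit of a phosphatase complex that switches the STK3 and STK4 kinases off, whereas NF2 (merlin) and the cadherin FAT1 act in favour of LATS activity. STRN4 averaged 23.6 ± 1.59 TPM in RNF26 cells and 45.7 ± 5.49 TPM in control cells (adjusted p = 8.44e-05). NF2 averaged 8.30 ± 0.678 TPM in RNF26 cells and 15.3 ± 0.212 TPM in control cells (adjusted p = 0.000493). FAT1 averaged 204.6 ± 24.0 TPM in RNF26 cells and 363.8 ± 33.0 TPM in control cells (adjusted p = 0.000214).

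Actin genes and the adenosine pathway were read beside these, because YAP responds to actin tension and because NT5E makes adenosine. Of 14 tested actin and SRF target genes 9 were lower in HCT15 RNF26 cells and 5 were not called, against 31.2% lower over all tested genes, with a median of -0.55. Among those not called, MYL9, named after its values were seen, had at most 0.42 TPM in HCT15 libraries. It passed the filter on low values through HCT116 alone and had little room to fall in HCT15. ZYX (zyxin, a focal adhesion protein) averaged 7.01 ± 0.494 TPM in RNF26 cells and 15.3 ± 0.898 TPM in control cells (limma adjusted p = 3.91e-05). ACTB had a log2 difference of -0.88 (adjusted p = 5.08e-05), VCL (vinculin) of -0.67 (6.32e-05) and CNN2 (a calponin) of -0.74 (0.000346). Of the immediate early list, ZFP36 had a log2 difference of -1.08 (adjusted p = 0.000144), IER2 of -1.02 (0.0001125), FOSL1 of -0.78 (6.50e-05) and IER3 of -0.66 (0.000172), and the median of 13 was -0.66. Of 8 tested genes of extracellular adenosine, NT5E was higher, SLC29A1 and ADORA2B were lower and 5 were not called. The 25% called lower is below the 31.2% of all tested genes. Among those not called, ADORA1 and ADORA2A, named after their values were seen, had at most 0.34 and 0.37 TPM in HCT15 libraries. Both passed the filter on low values through HCT116 alone and had little room to fall in HCT15. SLC29A1, an equilibrative nucleoside transporter, averaged 19.1 ± 1.06 TPM in RNF26 cells and 34.8 ± 2.04 TPM in control cells (adjusted p = 3.83e-05). ADORA2B, an adenosine receptor, had 13.19, 10.60 and 11.28 TPM in RNF26 libraries, against 18.46, 17.44 and 13.01 TPM in control libraries, with overlapping groups and an adjusted p of 0.0157. ENTPD2 was not called (adjusted p = 0.109). In HCT116 no gene of any of these lists was called.

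**Figure D5:**
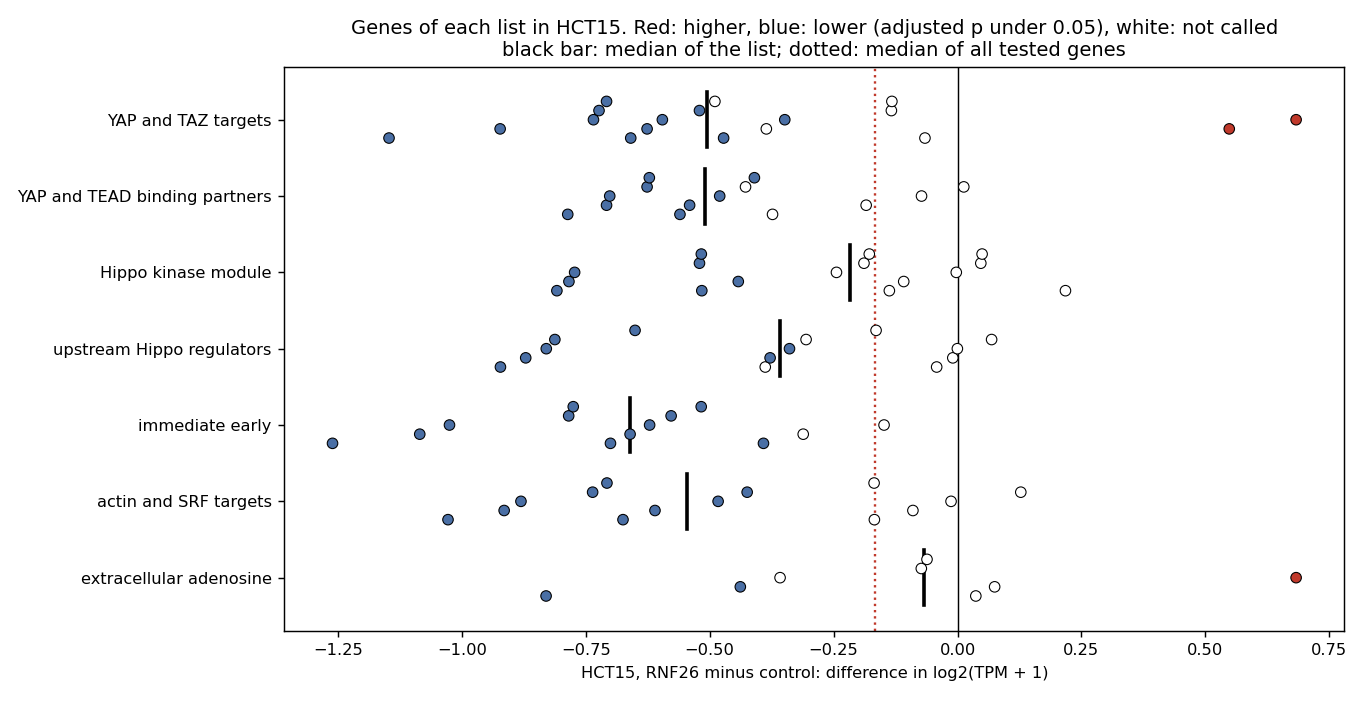
Difference between HCT15 RNF26 and HCT15 control cells in log2(TPM + 1) for each tested gene of 7 lists, with red for called higher, blue for called lower and white for not called. White points include AXL, AMOTL1, RASSF2, MYL9, ADORA1 and ADORA2A, which passed the filter on low values through HCT116 alone. Black bars mark the median of a list and the dotted line the median of all tested genes at -0.17, and the list medians run from -0.66 for immediate early genes to -0.07 for extracellular adenosine.

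Between the control lines 13 of 18 tested YAP and TAZ targets were higher in HCT15, 2 were lower and 3 were not called, with a median of 1.02 against 0.22 over all tested genes, of which 43.6% were called higher and 26% lower. Of the 13 targets that are not among the 10 genes 9 were higher and 1 was lower. The filter on low values was passed through HCT15 alone by CCN2, ANKRD1, NUAK2 and IGFBP3, and through HCT116 alone by AXL. IGFBP3 and AXL are named after their values were seen. The calls of these genes between the lines, and the counts that hold them, are a description only. ANKRD1 averaged 6.03 ± 0.931 TPM in HCT15 control cells, and in HCT116 control cells it was listed at 0.02, 0.03 and 0 TPM. NUAK2 averaged 9.16 ± 0.835 TPM in HCT15 control cells and 0.763 ± 0.0815 TPM in HCT116 control cells. The angiomotin-like genes differed in opposite directions. AMOTL1 measured 0.01, 0.14 and 0.01 TPM in HCT15 control libraries, against 5.43, 4.96 and 5.10 TPM in HCT116 control libraries, whereas AMOTL2 was higher in HCT15. AMOTL1 passed the filter on low values through HCT116 alone, so its call is a description too. Of 14 tested binding partners 9 were higher and 2 lower in HCT15 control cells, and of the 8 that are not among the 10 genes 4 were higher and 1 lower.

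Genes with the most similar course were picked by Pearson correlation of log2(TPM + 1) among tested genes with a mean of at least 5 TPM. These values describe the libraries, which fall into groups that share a line and an arm. Over all 12 libraries YAP1 was most like ABL1 (r = 0.985), YY1 (0.983) and TRRAP (0.979). CCN1 was most like TRAK1 (r = 0.991), B3GNT3 (0.989) and MYO10 (0.988), and CCN2 was most like BMP4 (0.995), PISD (0.994) and PACSIN2 (0.993). NT5E was most like PRKACB (r = 0.998), TFRC (0.997) and TNNT1 (0.997), which all had higher levels in HCT116. PRKACB averaged 3.71 TPM in HCT15 RNF26 and 1.94 TPM in HCT15 control cells, and 49.8 TPM in HCT116 RNF26 and 48.0 TPM in HCT116 control cells. Over the 6 HCT15 libraries alone other genes came first. They were EIF4G1, METAP1 and RETREG3 for YAP1 (r = 0.999, 0.999 and 0.998), TDRKH, GPR107 and PLEKHA4 for CCN1 (0.998, 0.997 and 0.997), and MMP24OS, SART1 and AHCY for CCN2 (0.998, 0.997 and 0.996). For NT5E they were PCCA (r = 0.996) and the identifiers ENSG00000280614 and ENSG00000280800 (0.994 each), which carry the same mean values as each other.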

How the data were processed

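Total RNA of HCT15 and HCT116 cells was extracted with TRIzol, selected for polyA and sequenced from a stranded kit, per the labels' protocols. The authors deposited 1 table of TPM for the 12 libraries, with each column summing to about 1000000. The tools fastp, HISAT2, RSEM and StringTie and the build GRCh38 are named per the submitters' processing notes. Not given in the sources used here are their versions, roles and order, the annotation and the use of strand. TPM divides out depth, so no count model or counting interval was used, and a library's TPM values share a fixed total.

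Groups and replicate numbers came from the sample titles. Symbols were matched by Ensembl number for 62625 of 63036 identifiers, with positions from the GENCODE annotation of GRCh38. At least 24770 genes differed between any 2 libraries, so none was counted as a copy of another. Tests used R 4.3.3 and limma 3.58.1 on log2(TPM + 1), in 1 fit of 15584 genes with a mean per group and eBayes with a trend (8 residual and 3.09 prior degrees of freedom). Tests were two-sided, with Benjamini-Hochberg adjustment over all tested genes and calls at 0.05. The scripts were tested on simulated data.

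The 10 genes and all lists were chosen with earlier results of these data known. Named were RNF26, the 10 genes, up to 4 genes per list with the smallest p, and the 3 genes most like YAP1, CCN1, CCN2 and NT5E. Others are said to be named after their values were seen, and 1 gene that the rule selects is not reported here. Alternatives were a pseudocount of 0.1 or 5, no filter or a filter of 5 TPM, median-ratio scaling, quantile normalization, rescaling without mitochondrial and ribosomal protein genes, separate fits, eBayes without a trend or robust, a replicate block, and leaving out each library. A spline correction for GC content and length was added after the data were seen.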

Additional observations from a re-analysis of the deposited data

Results flagged for a closer look

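The RNF26 effect differed between the lines, by the interaction term in limma, for 7 genes beside CCN2, 6 of them lower in HCT15 and NT5E higher. Over all tested genes 18.7% were called lower and 1.8% higher. The effect in HCT15 minus that in HCT116 was -0.80 on the log2 scale for YAP1, -0.48 for TEAD1 and -0.64 for TEAD4. It was -0.94 for CCN1, -0.87 for AJUBA and -0.77 for AMOTL2. The calls of TEAD1, TEAD4 and AMOTL2 were lost under at least 1 other scaling, as given above. The value of -1.08 for CCN2 shows no difference between lines by itself, since at 0.403 TPM in HCT116 control cells the gene could fall by at most 0.49 there on this scale. The difference of effects was 0.69 for NT5E, the only gene of these that was higher with RNF26 in HCT15. In 3 libraries per group no test for a single far library was run.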

How the results depend on the processing

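The number of the 10 genes called stayed within 1.5 times of the reported one under every alternative run, from 7 to 10 in HCT15 (9 reported), from 6 to 8 for the difference between lines (8 reported) and from 8 to 10 between control lines (10 reported), CCN2 included, with 0 in HCT116 throughout. CCN2 and LATS2 could not be tested with the 5 TPM filter. Calls of single genes that changed are given with the results above, and their cause was not tested. Uncalled HCT116 differences changed sign when 1 library was left out, and ranged from -0.056 to 0.11 for TEAD4, -0.076 to 0.10 for CCN1, -0.032 to 0.14 for AMOTL2, -0.12 to 0.054 for LATS2 and -0.047 to 0.028 for NT5E. Over all genes, HCT15 gave 5697 calls, against 3902 with HCT15 fitted alone, where the trend and spread come from fewer libraries. The difference between lines gave 3190 calls, against 2080 after median-ratio scaling, 1932 after quantile normalization, 1642 when corrected for GC and length, and 1941 to 3857 with 1 library left out (1941 without HCT116 RNF26 replicate 2, 2125 without its replicate 1 and 2089 without HCT116 control replicate 3). Those calls split into 281 higher and 2909 lower as deposited. Median-ratio scaling gave 934 higher and 1146 lower, quantile normalization gave 856 and 1076, leaving out mitochondrial and ribosomal protein genes gave 512 and 1811, and the GC and length correction gave 629 and 1013. HCT116 gave 1 call, against 11 with no filter, 3 with HCT116 fitted alone and 1 to 3 with 1 library left out (3 without HCT15 control replicate 2, and 2 without HCT15 RNF26 replicate 3 or any HCT116 control library). With the replicate number as a block, 5479 genes were called in HCT15, 1 in HCT116 and 2835 for the difference between lines, and it changed no call of the 10 genes. The labels do not say that a number marks a pair, deviations of same-numbered libraries correlated at -0.0424 to 0.1459, and not every library was closest to its own number. TPM gives no depth, so low values such as CCN2 in HCT116 have an unknown counting error.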
